A study of Mus musculus with 14 samples.

Results

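The genes described here copy DNA or serve S phase: 48 mouse genes of DNA replication, from the origin licensing factors and the replicative helicase to the polymerases, the sliding clamp and the enzymes that supply nucleotides. They were followed in the thymus of mice given 17β-estradiol or the soy isoflavone genistein. Members were found as the probe sets annotated to 1 of these genes and to no other gene, by current symbol or alias: 82 of the 22690 probe sets of the array, for 46 of the 48 genes, among 12385 genes that the array names singly. Chaf1a and Gins2 had no such probe set. Of the 82 probe sets, 73 passed the filter on dim signals and stand for 45 genes; the 9 others include all 3 probe sets of Tyms.

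The mice were female C57BL/6, ovariectomised at 26 days of age and kept on a diet free of phytoestrogens, and treatment began at 30 days. Controls were sampled untreated on day 0. Estradiol mice received 125 ng of 17β-estradiol a day under the skin in 0.02 ml of corn oil, and genistein mice ate a diet with 1500 ppm genistein; both were sampled on days 2, 3 and 6. Each of the 7 groups had 6 animals, pooled by 3 into 2 arrays, so the 14 arrays are pools and the 2 of a group are its biological replicates. All groups lacked ovaries, and the controls received neither oil nor a second diet and were younger than every treated group, so treatment, vehicle and time since day 0 cannot be told apart in a comparison with control. The doses and routes of the treatments also differed, so the comparison of estradiol with genistein is one of 2 regimens at matched days.

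As a check of the tissue, the double-positive thymocyte markers Cd4, Cd8a and Rag1 gave signals of 485 to 1132, 1583 to 2128 and 1917 to 2962 over the 14 arrays. The deposited signals had a 2%-trimmed mean of 150.04 on 11 arrays, but of 223, 300.3 and 335 on estradiol day 2 replicate 2 and on both estradiol day 3 arrays. All arrays were therefore brought to 150.04, and the signals below are on that scale. The ratio of the 3′ to the 5′ Gapdh control signal, a measure of RNA integrity, reached 1.503 for replicate 1 of genistein day 6 and 1.27 for replicate 1 of estradiol day 2, while the remaining 12 arrays gave 0.867 to 1.10. Array signals of different probe sets are not comparable as RNA levels, so each member gene is compared with itself only. Sums over marker lists are given below as a description, and the brightest probe sets weigh most in them.

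Before a cell divides, the origin recognition complex, Cdc6 and Cdt1 load the ring of Mcm2 to Mcm7 onto DNA, a step called licensing that geminin (Gmnn) blocks once S phase has begun. Cdc7 with Dbf4 and the cyclin E kinases then fire the origins, Cdc45, the GINS complex and Mcm10 turn the ring into an active helicase, primase starts each strand, and the clamp Pcna, set by replication factor C, holds the polymerases to DNA. In the thymus most of this activity is found in dividing immature thymocytes, while the resting double-positive cells that fill the cortex divide little. In bulk tissue, fewer cells of a type and less RNA per cell cannot be told apart.

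Many replication genes are known targets of E2F transcription factors, so the promoters of the members were searched for 4 E2F octamers (TTTCCCGC, TTTCGCGC, TTTGCCGC and TTTGGCGC) and for the CCAAT box, on both strands; the octamers can overlap each other. The windows run from 250 bases before to 50 after each gene's start and come from RefSeq on build GRCm38.p6, which held an entry for 40 of the 48 members. An E2F octamer was found for 13 of these 40 genes (32.5%), and in 2.26% of all 32851 promoters of that length and for 5.01% of the 6686 genes tested on the array that have an entry. CCAAT was found for 23 of the 40 (57.5%), in 37.4% of all promoters and for 42.8% of tested genes with an entry. A match is a description of the letters in the window, and factor binding was not measured.

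The following 120-base stretches upstream of the start, 5′ to 3′ on the gene's strand, show what such promoters hold, with every E2F octamer in capitals. They were chosen after the matches were seen, as examples from the helicase and licensing genes. They lie at chr8:75109340-75109459 (+ strand), chr1:128359712-128359831 (- strand), chr5:138171945-138172064 (- strand), chr4:108579334-108579453 (+ strand) and chr11:98907997-98908116 (+ strand).
Mcm5: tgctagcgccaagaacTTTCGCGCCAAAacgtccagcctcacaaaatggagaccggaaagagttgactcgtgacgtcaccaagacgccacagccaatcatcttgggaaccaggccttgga
Mcm6: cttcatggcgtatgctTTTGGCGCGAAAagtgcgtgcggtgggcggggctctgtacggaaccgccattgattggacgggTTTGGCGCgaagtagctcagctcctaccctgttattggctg
Mcm7: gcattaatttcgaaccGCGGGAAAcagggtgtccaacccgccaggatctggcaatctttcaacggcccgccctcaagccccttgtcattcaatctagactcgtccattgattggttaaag
Orc1: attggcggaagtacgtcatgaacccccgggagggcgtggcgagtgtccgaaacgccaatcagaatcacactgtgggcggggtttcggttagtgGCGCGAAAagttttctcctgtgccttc
Cdc6: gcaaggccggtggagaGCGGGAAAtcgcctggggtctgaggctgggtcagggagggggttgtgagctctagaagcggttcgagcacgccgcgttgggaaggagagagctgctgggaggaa

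In Mcm5 and Mcm6 a pair of octamers on opposite strands overlaps, starting 153 and 149 bases before the start in Mcm5 and 110 and 106 in Mcm6, where another octamer begins 47 bases before it. The octamer of Orc1 is 27 bases from the start.

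None of the 6 members with the smallest p for estradiol against control had an E2F octamer in its window: 4 had none, and Ccne2 and Gmnn have no entry. The same stretches of Rpa3, Prim1 and Orc6, the 3 of these 6 with CCAAT there, are given for contrast, with CCAAT or its reverse complement in capitals. They lie at chr6:8259142-8259261 (- strand), chr10:128015095-128015214 (+ strand) and chr8:85299512-85299631 (+ strand).
Rpa3: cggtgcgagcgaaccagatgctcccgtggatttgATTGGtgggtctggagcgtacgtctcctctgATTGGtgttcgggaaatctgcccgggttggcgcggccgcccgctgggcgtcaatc
Prim1: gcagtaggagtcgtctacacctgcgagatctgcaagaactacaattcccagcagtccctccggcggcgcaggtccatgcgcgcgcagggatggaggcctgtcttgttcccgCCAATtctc
Orc6: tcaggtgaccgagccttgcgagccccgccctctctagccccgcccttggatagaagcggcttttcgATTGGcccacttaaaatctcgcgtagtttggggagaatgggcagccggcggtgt

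The 13 members with an E2F octamer had a median log2 difference of -0.05 between estradiol and control (10 of 13 negative), and the 25 tested members with an entry but no octamer had -0.20 (22 of 25 negative). These medians are given as a description, and their difference was not tested.

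No member passed the test in any comparison: with limma, 0 of 73 probe sets had an adjusted p under 0.05 for either treatment against control, for estradiol against genistein, at any day or over days. Over the mean of days 2, 3 and 6 the median log2 difference of the 45 genes from control was -0.20 with estradiol, with 37 of 45 negative, and -0.10 with genistein, with 32 of 45 negative. The medians of all 8212 genes tested were 0.01 and 0.02. On the signals as deposited, with the 3 arrays at their higher scale, the estradiol median of the members turns to 0.23, while all genes shift by 0.43. On the brightest probe set of each gene, the largest differences with estradiol belonged to Ccne2 (-0.75 ± 0.211 SE), Rpa3 (-0.56 ± 0.132), Dut (-0.50 ± 0.14) and Gmnn (-0.46 ± 0.135). Both comparisons with control use the same 2 control arrays.

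At an unadjusted p under 0.05, estradiol differed from control for 17 of the 73 probe sets and genistein for 8, with lowest adjusted p of 0.0701 (Rpa3) and 0.346 (Mcm3). By gene, 12 of 45 were lower with estradiol at that unadjusted level (26.7%) and 0 higher, where 5.97% of all genes tested were lower and 9.34% higher. With genistein 6 of 45 were lower (13.3%) and 0 higher, against 4.3% and 6.83% of all genes. Called by the adjusted p, 0.604% of all 13575 probe sets differed between estradiol and control over the mean of days and 0.0368% between genistein and control, so the shares called are low for the whole array too. The members share cells and arrays, so their counts are not independent observations.

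Counting by whole groups of arrays, 11 of 45 members had all 6 estradiol arrays below both controls: Mcm3, Mcm4, Mcm10, Dut, Prim1, Gmnn, Rpa3, Dbf4, Cdc7, Ccne2 and Orc1. None had all 6 above. Among all genes 7.29% lay below in this way and 8.73% above. With genistein 6 lay below (Mcm3, Dut, Rpa3, Dbf4, Cdc7 and Ccne2), all of them among the 11, and Rfc2 lay above, against 3.57% and 4.97% of all genes. These counts lean on single arrays: without control replicate 1 they are 22 with estradiol and 16 with genistein, when 24.5% and 19.9% of all genes lie below. Without estradiol day 2 replicate 1 the estradiol count is 18, and on the deposited signals it is 0. The shares of all genes in these last settings are not given here, so the change in count cannot be read as particular to the members.

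**Figure D1:**
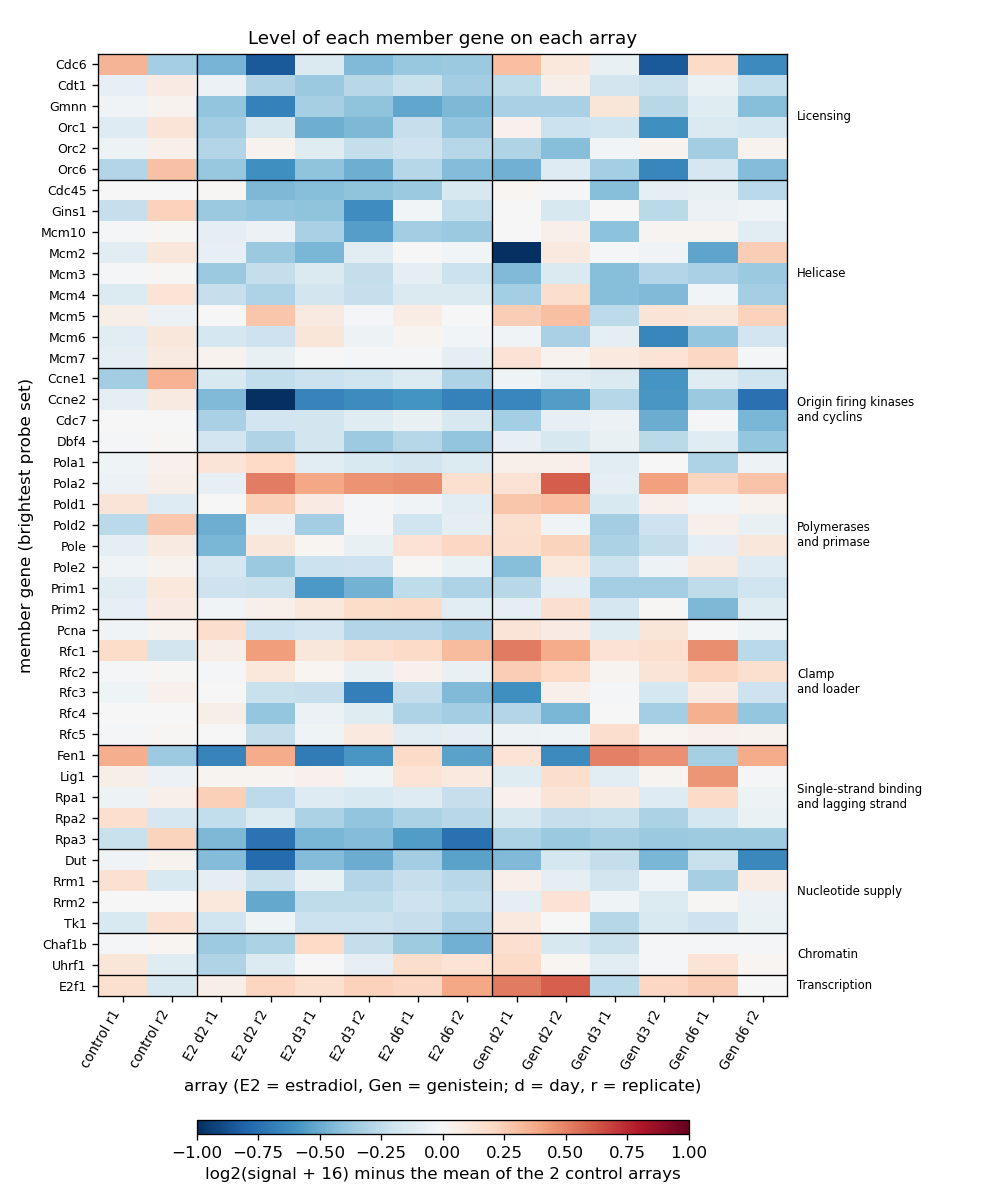
Heat map of 45 member genes (rows, by role, brightest probe set) on 14 arrays (columns), where colour gives the log2 level, log2(signal + 16), minus the mean of the 2 control arrays, blue lower and red higher. The estradiol columns are mostly blue for licensing, origin firing and nucleotide supply genes, and mixed for polymerase and clamp loader genes.

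The median of the 45 members on each array, set against the control mean, was -0.04 and 0.04 on the controls, -0.24 to -0.17 on the 6 estradiol arrays and -0.14 to -0.01 on the 6 genistein arrays. All estradiol arrays thus lay below all genistein arrays, and the genistein range reached that of the controls. The median of all genes stayed between -0.01 and 0.06.

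Licensing genes had the lowest estradiol median of the roles with more than 2 tested genes, at -0.39; their genistein median was -0.20, with 6 of 6 genes negative in both. Below, signals are given for the 2 controls and then, for each treatment, for replicates 1 and 2 of day 2, day 3 and day 6. Orc1, the largest subunit of the origin recognition complex, gave 73.6 and 90.8 in the controls, 60.7, 71.6, 53.9, 55.6, 67.4 and 58.4 with estradiol and 84.7, 68.4, 69.4, 47.9, 72.3 and 70.6 with genistein. With estradiol Orc1 had all 6 below both controls, and with genistein 5 below both controls, of 6 arrays each. The fit gave log2 differences of -0.34 ± 0.159 (SE) with estradiol and -0.22 ± 0.159 with genistein (limma adjusted p = 0.334 and 0.627). Orc6, another subunit of that complex, read 181 and 279 in the controls, 169.5, 142, 167, 155, 182 and 163 with estradiol and 157, 205, 174, 138, 198 and 163 with genistein. Its 2 controls stood far apart. Counted against the controls, estradiol had 5 below both controls, and genistein 4 below both controls, of 6 arrays each. It had log2 differences of -0.43 ± 0.17 (SE) with estradiol and -0.37 ± 0.17 with genistein (limma adjusted p = 0.255 and 0.449); with control replicate 1 left out the differences were -0.72 and -0.66, and with replicate 2 left out -0.14 and -0.07.

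Cdc6, the ATPase that loads the helicase with Cdt1, gave 306 and 185 in the controls, 168, 126, 214, 171, 179.6 and 180.2 with estradiol and 298, 258, 226, 126, 274 and 148 with genistein. Replicates scattered widely, the controls included. For Cdc6 there were 5 below both controls among the estradiol arrays and 2 below both controls among the genistein arrays. Its differences, -0.44 ± 0.245 (SE) with estradiol and -0.16 ± 0.245 with genistein, are the least precise of this role. For Cdt1 the signals were 849 and 954 in the controls, 864, 726, 692, 741, 770.3 and 702 with estradiol and 752, 940.3, 789, 767, 858 and 755 with genistein. Of the 6 estradiol arrays it had 5 below both controls, and of the 6 genistein arrays 4 below both controls. The estradiol difference was -0.26 ± 0.119 (SE, limma adjusted p = 0.325). The other tested probe set of Cdt1 gave -0.05 ± 0.132 (SE) with estradiol and -0.003 ± 0.132 with genistein.

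Gmnn, which holds Cdt1 inactive after licensing, stood at 464 and 490.1 in the controls, 358, 292, 376, 357, 328 and 345 with estradiol and 379, 379, 520.3, 390.0, 438 and 351 with genistein. With estradiol Gmnn had all 6 below both controls, and with genistein 5 below both controls and 1 above both, of 6 arrays each. The estradiol difference was -0.46 ± 0.135 (SE) and the genistein difference -0.22 ± 0.135 (limma adjusted p = 0.131 and 0.545). Orc2, the remaining member of this role, differed by -0.18 ± 0.142 (SE) with estradiol and -0.17 ± 0.142 with genistein on its brightest probe set, and its other 2 probe sets gave 0.05 and -0.06 with estradiol.

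The origin firing genes, 4 in number, were all negative with both treatments, with medians of -0.25 and -0.22. Ccne2, a cyclin E that drives entry into S phase with Cdk2, read 183 and 208 in the controls, 139, 60.5, 117, 121, 124 and 116 with estradiol and 118, 128, 158, 125, 147 and 110.0 with genistein. All 12 treated arrays lay below both controls. Estradiol day 2 replicate 2, at 60.5, was the lowest array by a wide margin. The differences, -0.75 ± 0.211 (SE) and -0.53 ± 0.211, were the largest among brightest probe sets for both treatments, and did not pass (limma adjusted p = 0.122 and 0.396). Ccne1, the other cyclin E, gave 79.3 and 139 in the controls, 93.2, 86.4, 88.7, 89.7, 94.8 and 82.0 with estradiol and 102, 96.8, 94.2, 64.6, 96.0 and 90.1 with genistein. For Ccne1 there were none outside the 2 controls among the estradiol arrays and 1 below both controls among the genistein arrays. Its controls differed from each other by more than either treatment's mean differed from control, and it had log2 differences of -0.21 ± 0.179 (SE) with estradiol and -0.20 ± 0.179 with genistein (limma adjusted p = 0.619 and 0.706). Dbf4 and Cdc7, the regulatory and catalytic subunits of the firing kinase, had estradiol differences of -0.29 ± 0.119 (SE) and -0.18 ± 0.148 and genistein differences of -0.18 ± 0.119 and -0.24 ± 0.148. For both genes every treated array of either regimen lay below both controls.

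Among the 9 tested helicase genes the median difference was -0.21 with estradiol (8 of 9 negative) and -0.14 with genistein (7 of 9). The 6 subunits of the Mcm ring did not stand together. Mcm3 had signals of 778 and 788 in the controls, 603, 661, 706, 662, 730.2 and 674 with estradiol and 572, 708, 577, 637, 621 and 600.2 with genistein. Both controls exceeded all 12 treated arrays. It had the smallest p of the members for genistein, at -0.33 ± 0.11 (SE), and an estradiol difference of -0.22 ± 0.11 (limma adjusted p = 0.346 and 0.386). Its other 4 probe sets gave genistein differences between -0.06 and 0.24, so the brightest probe set stood apart from them.

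Mcm2 read 803 and 945 in the controls, 821, 672, 630.5, 808, 873 and 855 with estradiol and 412, 935, 860.2, 850.1, 599.7 and 1036 with genistein. With estradiol Mcm2 had 2 below both controls, and with genistein 2 below both controls and 1 above both, of 6 arrays each. Genistein day 2 replicate 1 was the lowest array, and the differences had an SE of 0.247, the widest of the ring (-0.17 with estradiol and -0.21 with genistein). Mcm5 stood at 555 and 509.8 in the controls, 532, 648, 566, 528, 562 and 532 with estradiol and 635, 658, 442, 584, 578 and 625 with genistein. Counted against the controls, estradiol had 3 above both controls, and genistein 1 below both controls and 5 above both, of 6 arrays each. Here both differences were above 0, at 0.07 ± 0.124 (SE) and 0.13 ± 0.124 (limma adjusted p = 0.828 and 0.726). Mcm6 gave 744 and 878 in the controls, 714, 697, 879, 780.4, 823 and 792 with estradiol and 788, 643, 759, 509, 615 and 706 with genistein. For Mcm6 there were 2 below both controls and 1 above both among the estradiol arrays and 4 below both controls among the genistein arrays. Among brightest probe sets, only that of Mcm6 had a 95% interval above 0 for estradiol against genistein. The difference was 0.23 ± 0.102 (SE, interval 0.01 to 0.45, limma adjusted p = 0.276). It was 0.13 without genistein day 3 replicate 2 and 0.32 without replicate 1 of that day. The other Mcm6 probe set gave -0.02 for that comparison. A dimmer Dut probe set also had its interval above 0 there (0.01 to 0.47), and a dimmer Prim2 probe set is described below. Mcm4 and Mcm7 had estradiol differences of -0.21 and -0.03 on their brightest probe sets. The dimmer Mcm4 probe set gave -0.27, and the dimmer Mcm7 probe sets gave -0.125, -0.235 and -0.37.

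The factors that turn the ring into the active helicase were lower with estradiol than with genistein in their point estimates. Cdc45 read 182 and 184 in the controls, 184, 129.6, 132, 134, 138 and 162 with estradiol and 185, 181, 132, 170.1, 172 and 149 with genistein. Of the 6 estradiol arrays it had 5 below both controls and 1 above both, and of the 6 genistein arrays 5 below both controls and 1 above both. Its estradiol difference from control was -0.30 ± 0.147 (SE; limma adjusted p = 0.363). Gins1, the only GINS subunit among the tested members, stood at 142 and 201 in the controls, 127, 125, 124, 104, 166 and 139.9 with estradiol and 169, 149.5, 168, 138, 162 and 164 with genistein. With estradiol Gins1 had 5 below both controls, and with genistein 1 below both controls, of 6 arrays each. Estradiol differed from genistein by -0.25 ± 0.104 (SE; limma adjusted p = 0.232). Mcm10, which binds the helicase and polymerase alpha, gave 233 and 238 in the controls, 219, 226, 185, 156, 182 and 179 with estradiol and 235, 245, 174, 239.9, 241 and 217 with genistein. Counted against the controls, estradiol had all 6 below both controls, and genistein 2 below both controls and 3 above both, of 6 arrays each. Its difference between regimens was -0.22 ± 0.0932 (SE; limma adjusted p = 0.241), with the lower estradiol arrays at days 3 and 6.

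**Figure D2:**
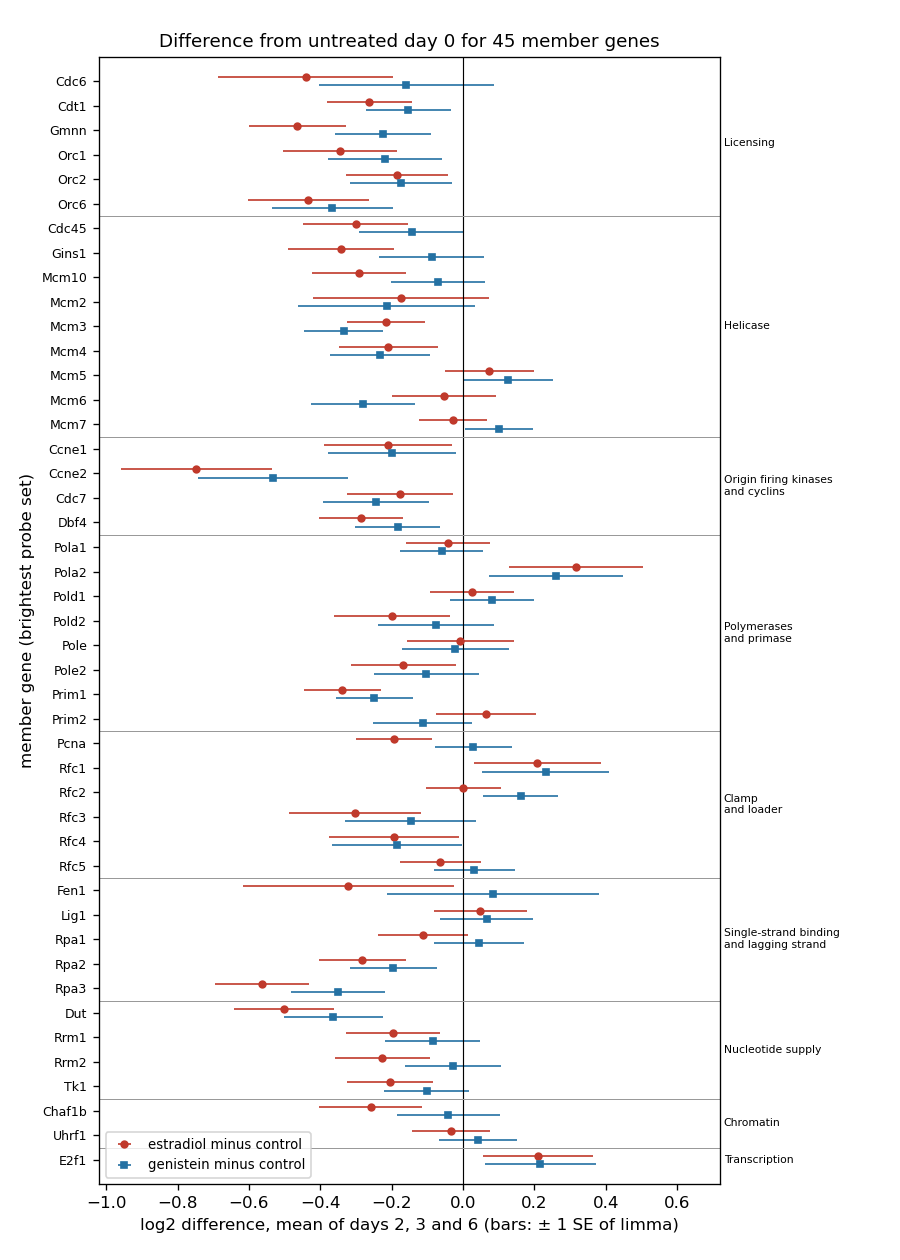
Log2 difference from the untreated day 0 controls for each of the 45 tested member genes, as the mean of days 2, 3 and 6, with bars of 1 SE from limma; circles are estradiol and squares genistein, and the zero line marks no difference. Points lie left of 0 for 37 genes with estradiol and 32 with genistein, and Ccne2 lies farthest left for both.

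For the 8 polymerase and primase genes the medians were near 0, at -0.03 with estradiol (5 of 8 negative) and -0.07 with genistein. Prim1, the catalytic subunit of primase, had the lowest estimates of this role on brightest probe sets. It read 520.4 and 605 in the controls, 485, 479, 373, 401, 468 and 451 with estradiol and 460.2, 527, 441, 439, 469 and 487 with genistein. For Prim1 there were all 6 below both controls among the estradiol arrays and 5 below both controls among the genistein arrays. It had log2 differences of -0.34 ± 0.108 (SE) with estradiol and -0.25 ± 0.108 with genistein (limma adjusted p = 0.166 and 0.423), and its other probe set gave -0.49 and -0.51. Without control replicate 2 the genistein difference was -0.14. Pola1, the catalytic subunit of the polymerase that extends the primer, gave 186 and 198 in the controls, 211, 222, 176, 171, 167 and 173 with estradiol and 199, 199, 177, 192, 152 and 185 with genistein. Of the 6 estradiol arrays it had 4 below both controls and 2 above both, and of the 6 genistein arrays 3 below both controls and 2 above both. Its differences were -0.04 ± 0.117 (SE) and -0.06 ± 0.117. Pola2, its accessory subunit, had the highest estimates among the brightest probe sets of the members. They were 0.32 ± 0.187 (SE) with estradiol and 0.26 ± 0.187 with genistein (limma adjusted p = 0.459 and 0.618). The leading and lagging strand polymerase genes Pold1, Pold2, Pole and Pole2 had estradiol differences between -0.20 and 0.03, and Prim2 0.06.

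The clamp and its loader had medians of -0.13 with estradiol (4 of 6 negative) and 0.03 with genistein (2 of 6). Pcna, the sliding clamp, read 2784 and 2933 in the controls, 3232, 2466, 2496, 2324, 2329 and 2246 with estradiol and 3134, 3030.1, 2630.3, 3110.1, 2864 and 2768 with genistein. With estradiol Pcna had 5 below both controls and 1 above both, and with genistein 2 below both controls and 3 above both, of 6 arrays each. Estradiol day 2 replicate 1 was the highest array of all, while the other 5 estradiol arrays lay below every other array. Against genistein the estradiol difference was -0.22 ± 0.0758 (SE, 95% interval -0.39 to -0.06, limma adjusted p = 0.15), the smallest p among the brightest probe sets for this comparison. Without estradiol day 2 replicate 1 the difference was -0.29. The loader subunits Rfc1 to Rfc5 had estradiol differences of 0.21, 0.000, -0.30, -0.19 and -0.06 and genistein differences of 0.23, 0.16, -0.15, -0.19 and 0.03. These subunits of 1 complex spanned both signs. The dimmer tested probe set of Rfc1 gave 0.41 ± 0.175 (SE) with estradiol and 0.37 ± 0.175 with genistein (limma adjusted p = 0.3 and 0.46).

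In single-strand binding and lagging strand work the medians were -0.28 with estradiol (4 of 5 negative) and 0.04 with genistein. Rpa3, the smallest subunit of the complex that coats single-stranded DNA, had the smallest p of all members for estradiol. Its signals were 396 and 542 in the controls, 335, 272, 334, 339, 309 and 271 with estradiol and 369, 354, 364, 356, 359.8 and 359 with genistein. All 12 treated arrays lay below both controls. All 6 estradiol arrays also lay below all 6 genistein arrays, which held for no other tested member. In the whole array 0.438% of genes lay below genistein in this way and 1.07% above. The differences were -0.56 ± 0.132 (SE) with estradiol and -0.35 ± 0.132 with genistein (limma adjusted p = 0.0701 and 0.379). Since the controls were 396 and 542, the size depends on them. The estradiol difference was -0.78 without control replicate 1 and -0.34 without replicate 2, and the genistein difference was -0.57 and -0.13. Rpa2 and Rpa1, the other subunits of the complex, had estradiol differences of -0.28 ± 0.121 (SE) and -0.11 ± 0.127 and genistein differences of -0.20 ± 0.121 and 0.04 ± 0.127. Lig1, the ligase that joins Okazaki fragments, read 609.9 and 564 in the controls, 597, 599.5, 604, 568, 648 and 629 with estradiol and 538, 665, 541, 599, 803 and 579 with genistein. For Lig1 there were 2 above both controls among the estradiol arrays and 2 below both controls and 2 above both among the genistein arrays. Its estimates, 0.05 ± 0.131 (SE) and 0.07 ± 0.131, lay close to 0.

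The 4 tested genes of nucleotide supply were all negative with estradiol (median -0.22), and 4 of 4 with genistein. Dut, which removes dUTP so that uracil is not built into DNA, read 819 and 861 in the controls, 618, 486, 619, 589, 656 and 576 with estradiol and 614, 742, 709.7, 607, 716 and 532 with genistein. Both controls exceeded all 12 treated arrays. It had log2 differences of -0.50 ± 0.14 (SE) with estradiol and -0.36 ± 0.14 with genistein (limma adjusted p = 0.119 and 0.383); a dimmer probe set of Dut gave -0.02 and -0.26. Rrm1, the large subunit of ribonucleotide reductase, stood at 898 and 720.2 in the controls, 749.7, 688, 769, 653, 685 and 662 with estradiol and 833, 754, 705, 791, 635 and 847 with genistein. With estradiol Rrm1 had 4 below both controls, and with genistein 2 below both controls, of 6 arrays each. Its differences were -0.20 ± 0.132 (SE) and -0.09 ± 0.132. Rrm2, the small subunit made in S phase, gave 1537 and 1521 in the controls, 1648, 1070.2, 1283, 1279, 1326 and 1289 with estradiol and 1429, 1689, 1488, 1390.0, 1544 and 1467 with genistein on its brightest probe set. Counted against the controls, estradiol had 5 below both controls and 1 above both, and genistein 4 below both controls and 2 above both, of 6 arrays each. Its differences were -0.23 ± 0.134 (SE) and -0.03 ± 0.134.

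Tk1, the thymidine kinase of S phase, read 318 and 397 in the controls, 307, 343, 304, 304, 301 and 280.2 with estradiol and 382, 354, 289, 318, 306 and 338 with genistein. For Tk1 there were 5 below both controls among the estradiol arrays and 2 below both controls among the genistein arrays. The estimates were -0.20 ± 0.119 (SE) and -0.10 ± 0.119. Tyms, thymidylate synthase, was not tested: its 3 probe sets averaged 37.5, 20.3 and 13.0 over all arrays, below the level of 44.5 at which probe sets entered the fit. The brightest of them read 40.2 and 40.8 in the controls, 30.8, 28.7, 32.4, 44.3, 35.5 and 31.3 with estradiol and 54.8, 48.0, 26.2, 28.2, 42.6 and 41.3 with genistein, and ran from 26.2 to 54.8 over all arrays.

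Of the chromatin genes, Chaf1b, a subunit of the assembly factor that places histones on new DNA, had an estradiol difference of -0.26 ± 0.144 (SE) and a genistein difference of -0.04 ± 0.144. Uhrf1, which reads hemimethylated DNA behind the fork, read 691 and 583 in the controls, 514, 575, 637, 598, 721 and 700.3 with estradiol and 726, 644, 589, 629, 701 and 644 with genistein. Of the 6 estradiol arrays it had 2 below both controls and 2 above both, and of the 6 genistein arrays 2 above both controls. Its differences were -0.03 ± 0.11 (SE) and 0.04 ± 0.11, and its other probe set gave 0.34 with estradiol. The transcription factor E2f1 gave 107 and 83.3 in the controls, 99.2, 112, 108, 114, 112 and 129 with estradiol and 143, 152, 75.9, 112, 115 and 94.6 with genistein. With estradiol E2f1 had 5 above both controls, and with genistein 1 below both controls and 4 above both, of 6 arrays each. It had log2 differences of 0.21 ± 0.155 (SE) with estradiol and 0.22 ± 0.155 with genistein (limma adjusted p = 0.557 and 0.617), so its point estimate was opposite in sign to that of most members.

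**Figure D3:**
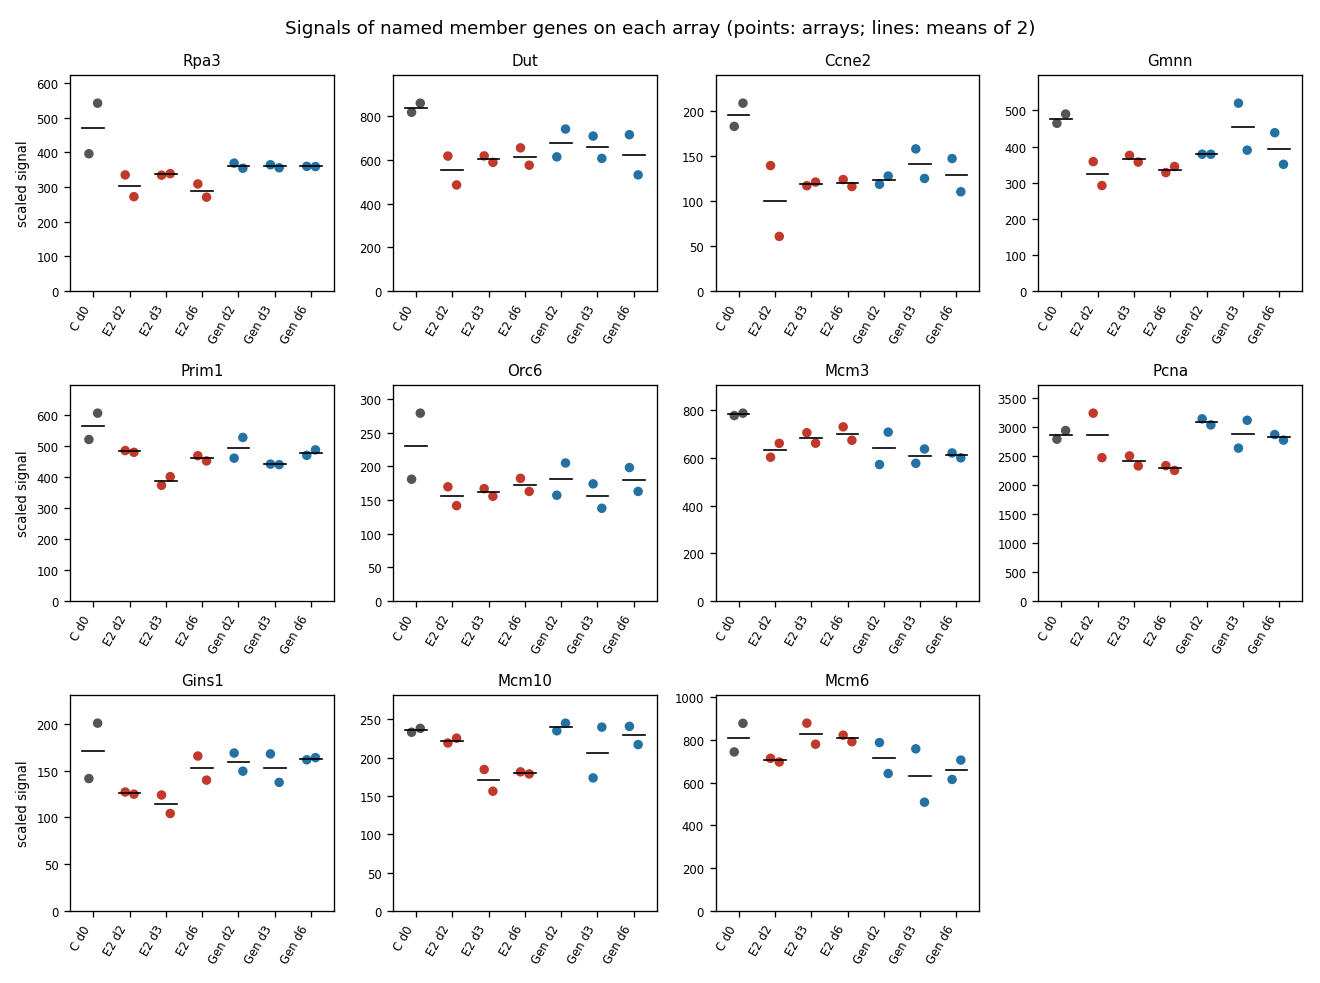
Scaled signals (linear axis from 0) of the 11 member genes with the smallest p in any comparison over the mean of days, for each array; grey points are the day 0 controls (C), red estradiol (E2) and blue genistein (Gen), and short lines mark the mean of the 2 arrays of a group. For Rpa3, Dut, Ccne2 and Mcm3 all 12 treated arrays lie below both controls, while the Orc6 and Gins1 controls stand far apart.

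Genes measured by more than 1 probe set allow a check within the array. Of the 21 members with several tested probe sets, all probe sets of a gene had the same sign in 16 for estradiol against control (15 negative and 1 positive), in 15 for genistein (12 and 3) and in 8 for estradiol against genistein (6 and 2). The probe sets named next were chosen after their values were seen. The dimmer Rrm2 probe sets had larger estradiol differences than the brightest one, -0.40 ± 0.114 and -0.58 ± 0.174 (SE; limma adjusted p = 0.126 and 0.144). A dimmer Prim2 probe set read 150.5 and 142 in the controls, 153, 66.4, 158, 168, 179 and 183 with estradiol and 61.6, 88.8, 144, 121, 86.4 and 65.2 with genistein. The genistein arrays of days 2 and 6 and estradiol day 2 replicate 2 were the lowest. Estradiol against genistein was 0.59 ± 0.154 (SE; limma adjusted p = 0.0772), while the brighter Prim2 probe set gave 0.18 ± 0.0984. The brightest probe set of Fen1, the flap nuclease of the lagging strand, read 908 and 541 in the controls, 436, 910.0, 426, 463, 803 and 478 with estradiol and 772, 445, 1003, 967, 553 and 914 with genistein. In 5 of the 7 groups 1 replicate was high and the other low. Its estradiol difference was -0.32 ± 0.296 (SE), and the other probe set of Fen1 gave -0.20 ± 0.121.

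**Figure D4:**
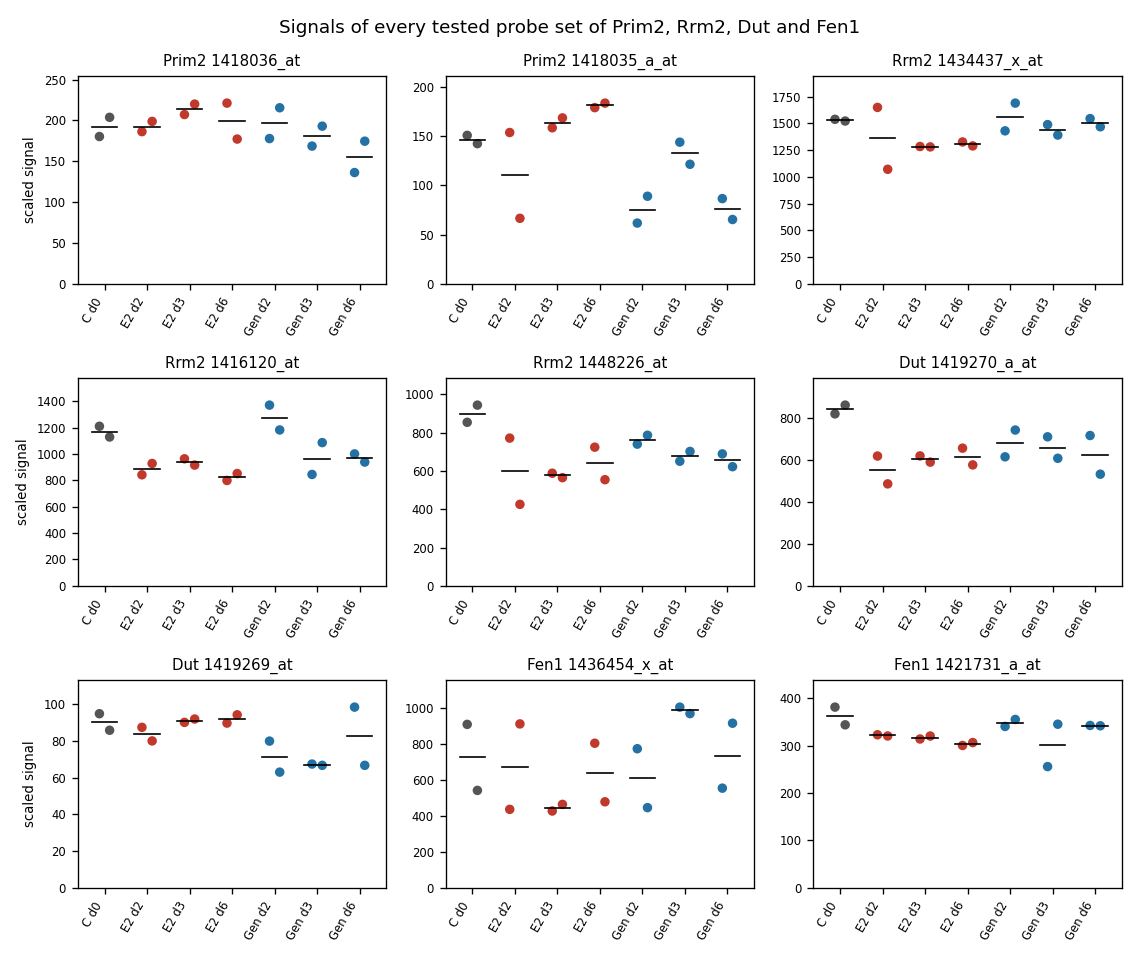
Scaled signals (linear axis from 0) of every tested probe set of Prim2, Rrm2, Dut and Fen1 on each array, with controls grey, estradiol red and genistein blue, and lines at the mean of 2 arrays. The probe sets of a gene differ in pattern: the brighter Fen1 probe set falls into high and low arrays within 5 of the 7 groups, and the dimmer one does not.

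By day, the members' median difference from control with estradiol was -0.19 on day 2, -0.21 on day 3 and -0.18 on day 6, with 36, 37 and 37 of 45 genes negative. With genistein it was -0.05, -0.13 and -0.12, with 24, 37 and 32 negative. No member was called on any day, and the whole array had few calls: estradiol against control called 0.0884%, 0.0663% and 0.656% of probe sets on days 2, 3 and 6, and genistein 0.0147%, 0.00737% and 0.00737%. At an unadjusted p under 0.05, 11, 15 and 11 of the 73 member probe sets differed with estradiol on the 3 days, and 6, 6 and 8 with genistein; the lowest adjusted p of limma were 0.22, 0.231 and 0.0894, and 0.321, 0.811 and 0.362. The F tests over the days of a treatment called 0 members for estradiol (0.0221% of all probe sets; 2 member probe sets at an unadjusted p under 0.05) and 0 for genistein (0%; 5). The test of whether the difference between regimens depended on the day called 0 members and 0% of probe sets, with 0 member probe sets at an unadjusted p under 0.05. For single days and F tests, the share of all probe sets at that unadjusted level was not taken. The unadjusted counts here therefore cannot be set against the whole array.

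Between the regimens at matched days, without the control arrays, the median of the 45 members was -0.10 for estradiol minus genistein, with 36 of 45 negative, against -0.01 for all genes; it turns to 0.34 on the deposited signals. No member was called, where 1.41% of all probe sets were over the mean of days and 0.081%, 0.0147% and 0.265% on days 2, 3 and 6. By an unadjusted p under 0.05, 12 of 73 probe sets differed over the mean of days and 5, 3 and 5 on single days. The share of all probe sets at that level was not taken for these counts, so they cannot be set against the whole array. By gene, 6 of 45 were lower with estradiol at that level (Pcna, Rfc2, Gmnn, Rpa3, Mcm10 and Gins1) and Mcm6 was higher, against 8.07% and 8.61% of all genes. The share of members lower, 13.3%, thus stood above that of all genes, and the share higher below it, without a test of either. A 95% interval at the median SE spanned 0.21 log2 to each side, a factor of 1.16, and 0.30, a factor of 1.23, for the comparisons with control. On brightest probe sets the intervals of 38 members therefore include 0 for estradiol against genistein. This does not show that the regimens act alike. The bounds on those probe sets ran from -0.85 to 0.45, and some dimmer probe sets reached higher.

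Other genes of the same processes pointed the same way. Of 51 further replication and S phase genes, 38 were tested: 0 were called, 30 were negative with estradiol and 30 with genistein, and the medians were -0.22 and -0.12. At an unadjusted p under 0.05, 10 were lower and 2 higher with estradiol, where 5.97% of all genes tested were lower and 9.34% higher. The 2 higher were Cdkn1a (0.32 ± 0.137 SE) and Cdkn1b (0.30 ± 0.136), which encode inhibitors of cyclin-dependent kinases. The smallest p belonged to Cdca7 (-0.41 ± 0.114 SE), the exonuclease Exo1 (-0.44 ± 0.137), the fork protection factor Tipin (-0.52 ± 0.172) and Cdk2 (-0.35 ± 0.121), the partner of cyclin E, with limma adjusted p between 0.119 and 0.196. Genes of mitosis and G2 had a lower median than the members. Of 25, 22 were tested: 21 were negative with estradiol, with a median of -0.33, and 13 were lower at an unadjusted p under 0.05, with 0 called. With genistein the median was -0.11 and 3 were lower at that level, where 4.3% of all genes were lower. The smallest p there were those of the kinases Aurka (-0.49 ± 0.131 SE), Cdk1 (-0.41 ± 0.114) and Aurkb (-0.38 ± 0.116) and of the cyclin Ccnb2 (-0.43 ± 0.133), with limma adjusted p of 0.105 to 0.158.

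Some markers of other cells of the thymus were higher with estradiol. Against control, 3 of 12 tested macrophage and dendritic cell markers passed the test as higher with estradiol (median 0.54). So did 4 of 11 thymic epithelial markers (0.47) and 1 of 8 fibroblast and adipocyte markers (0.58), where 0.604% of all probe sets were called. Of the 12 macrophage and dendritic cell markers, 10 were positive with estradiol and 2 negative, Adgre1 (-0.03 ± 0.14 SE) and Lyz2 (-0.09 ± 0.119). All epithelial, fibroblast and adipocyte markers tested were positive. With genistein limma called 0 in each list, and the medians were 0.29, 0.23 and 0.12. At an unadjusted p under 0.05, 5, 4 and 2 were higher with genistein and 1, 1 and 0 lower, where 6.83% of all genes were higher and 4.3% lower. The summed signals of these lists on the controls, with estradiol and with genistein were 3204 to 3464, 4288 to 4695 and 3265 to 4231 for macrophages and dendritic cells, 6301 to 6786, 8208 to 9874 and 7264 to 8104 for epithelium, and 1631 to 1925, 2359 to 3300.5 and 1579 to 2123 for fibroblasts and adipocytes. Such a sum follows mostly the brightest probe sets of its list. Itgam and Pdgfra were too dim to test. All 9 early thymocyte markers were positive with estradiol (median 0.32, 0 called), with sums of 1434 to 1483, 1778 to 2178 and 1559.6 to 1719.5. The 8 tested double-positive markers had a median of -0.03 with estradiol and sums of 11607 to 11928, 10290.5 to 12612 and 11639 to 13256. With estradiol 6 were negative and 2 positive, and with genistein 3 and 5. Among them Rag2 gave -0.41 ± 0.159 (SE) with estradiol and -0.45 ± 0.159 with genistein (limma adjusted p = 0.246 and 0.348). The 4 tested B cell markers had a median of 0.03 with estradiol, with sums of 2049 to 2164, 2344 to 2912 and 2005 to 2926 and Pax5 too dim. Ighm, by far the brightest of them, makes up most of these sums and gave 0.38 ± 0.126 (SE) with estradiol, so the sums do not stand for the list. For red blood cells 1 marker was tested (-0.20 with estradiol), with signals of 136 to 161, 83.8 to 183 and 53.2 to 176 and Hba-a1 and Slc4a1 too dim. Between the regimens, 3 macrophage and dendritic cell, 3 epithelial and 3 fibroblast and adipocyte markers passed the test as higher with estradiol than with genistein (medians 0.20, 0.22 and 0.52). A double-positive marker, Cd8b1, passed it as lower, where 1.41% of all probe sets were called. Of the mitosis and G2 genes 0 were called and 8 were lower at an unadjusted p under 0.05 (median -0.15), where 8.07% of all genes were lower. The part of these cell types in the members' differences was not tested.

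**Figure D5:**
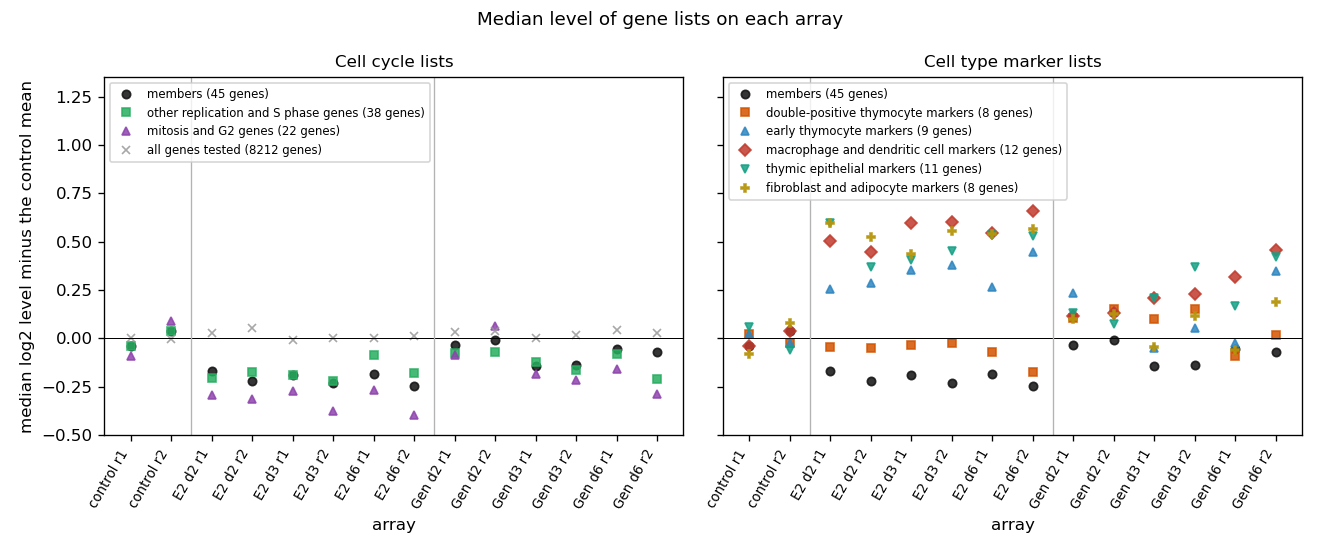
Median log2 level of each gene list on each array, minus the mean of the 2 controls (vertical axis), with the cell cycle lists on the left and the cell type marker lists on the right; all genes tested are crosses. On the 6 estradiol arrays the members lie at -0.24 to -0.17 and the mitosis genes at -0.40 to -0.26, while macrophage, epithelial, fibroblast and early thymocyte markers lie above 0.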

How the data were processed

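Thymus RNA from pools of 3 mice was hybridised to 14 one-colour Affymetrix arrays, 2 in each of 7 groups. The deposited intensity values are MAS5 5.0 signals, per the submitters' processing notes; what scaling target and filters that step used is not given in the sources. Every array was brought to a common 2%-trimmed mean of 150.04, 16 was added, log2 was taken, and the 40% of probe sets with the lowest mean were dropped, leaving 13575 probe sets and 8212 genes. Probe sets were named through the platform annotation: 20393 have 1 symbol, 691 several and 1606 none.

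Differences were tested with limma 3.58.1 in R 4.3.3 (lmFit with a mean for each group, eBayes with an intensity trend, 7 residual degrees of freedom, 13.74 after moderation), with Benjamini-Hochberg adjustment over all probe sets and a threshold of 0.05; the steps were tested on simulated data. A gene is represented by its brightest tested probe set. Only 2 arrays a group limit the precision, and p-values measure the spread between pools.

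Values on every array are given for the 6 members with the smallest p in each comparison over the mean of days and for fixed members of each role: Mcm2, Mcm5, Mcm6, Cdc6, Cdt1, Orc1, Gmnn, Cdc45, Pcna, Pola1, Prim1, Rrm1, Rrm2, Tyms, Tk1, Lig1, Chaf1a, Ccne1, Ccne2, E2f1 and Uhrf1, except that Chaf1a had no probe set and Tyms is given by its brightest, untested one. Genes that are no member are named from the lists only, at most 4 a list, besides Cdkn1a, Cdkn1b and Rag2. Promoter stretches outside the rule for printing them (E2F octamer in a member with one of the 6 smallest p for estradiol) were added after the matches were seen, since the rule gave none. The members and lists were chosen with earlier results of these data known. Alternatives covered the pseudocount, filter, scaling, moderation, replicate block, samples fitted, probe sets, arrays at another scale, Gapdh ratio and each array left out.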

Additional observations from a re-analysis of the deposited data

How the results depend on the processing

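With only 2 controls and 2 arrays a group, calls rest on single arrays. Of 28 alternatives, 14 left out an array. On the signals as deposited, where all genes shift by 0.43 log2 for estradiol against control and 0.41 against genistein over the mean of days, 66 member probe sets were called for estradiol against control on day 3, 70 for estradiol against genistein on day 3, and 8 and 52 over the mean of days; the members' medians turned to 0.23 and 0.34, Prim1 to 0.1 for estradiol against control, and Pcna, Gmnn, Gins1, Mcm10 and Rpa3 to 0.23, 0.2, 0.16, 0.21 and 0.23 for estradiol against genistein. The Gapdh ratio as a covariate gave 3 calls for estradiol against control (Gmnn, Dut and Ccne2, all lower) and 1 against genistein (Prim2, higher), as did the deposited scale as a term (1, Prim2). Median centring moved the estradiol median to -0.24, and the scale term moved it to -0.16 and the median against genistein to -0.05. The cause of these moves was not tested. For the settings of this paragraph the share of all probe sets called is not given here. The counts of called members therefore cannot be set against the whole array.

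Leaving out each array in turn gave 0 to 1 calls on day 2 for estradiol (Rpa3 without control replicate 1, Ccne2 without estradiol day 2 replicate 1) and genistein against control (Rfc1, higher, without control replicate 1), 0 to 1 on day 6 for estradiol against control (Rpa3, without control replicate 1) and against genistein (Prim2, without either estradiol day 2 array), and 0 to 2 over the mean of days for estradiol against control (Rpa3 and Prim1 without control replicate 1, Ccne2 and Rrm2 without estradiol day 2 replicate 1) and against genistein (Pcna and Rrm2 without estradiol day 2 replicate 1, Prim2 without replicate 2). The share of all probe sets called in these refits is not given here, so the calls cannot be read as particular to the members. With an array left out, the members' medians ranged from -0.22 to -0.14 for estradiol and -0.15 to -0.07 for genistein. Of 503 alternative values of the named genes, 490 kept their direction and side of the threshold, 6 reversed and 7 passed it. Counts of members with all arrays below both controls were recomputed under an alternative set chosen after seeing the data. For estradiol they were 0 as deposited, 18 with median centring and 11 to 22 with an array left out. For genistein they were 6 to 16 with an array left out. The share of all genes moves with the setting too, as given above for control replicate 1. For the other settings it is not given here, so these counts cannot be set against all genes.

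With the replicate number as a block, 0 members were called in every comparison. Whether same-numbered arrays pair was not tested. Over 21 pairs of groups their deviations from the group means correlated at -0.256 to 0.351 (median -0.006), 5 of them over 0.1.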

Other observations

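Thymidylate synthase has a further probe set that also matches its pseudogene Tyms-ps and was therefore no member. Its signals were 399 and 406 in the controls, 370.1, 359, 307, 349, 329.6 and 305 with estradiol and 464, 409.7, 385, 369, 457 and 344 with genistein, in the order of replicates 1 and 2 of days 2, 3 and 6. All 6 estradiol arrays lay below both controls, and the genistein arrays lay on both sides of them. The log2 differences from control were -0.25 ± 0.124 (SE) and 0.002 ± 0.124 (limma adjusted p = 0.371 and 0.997), and estradiol differed from genistein by -0.25 ± 0.088 (limma adjusted p = 0.162). The probe set cannot separate the gene from the pseudogene.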
